A study of Mus musculus with 6 samples.

Results

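The blood-brain barrier transporters described here are 10 genes, Slc2a1, Mfsd2a, Abcb1a, Abcg2, Abcc4, Slc7a5, Slc3a2, Slc7a1, Slc16a1 and Tfrc, chosen by name from the 49315 genes of the count table. All 10 had enough counts to be tested among 18234 genes. The RNA came from bEND.3, an immortalized mouse brain endothelial cell line, transfected by Lipofectamine 2000 with an antisense LNA GapmeR, a short oligonucleotide whose DNA core directs RNase H to its target RNA. In the GapmeR group (n = 4) it targeted the long non-coding RNA Gm39822 at 100 nM, and in the Negative Control group (n = 2) it was a control GapmeR at 100 nM. Ribosomal RNA was depleted before sequencing. The study's methods give equal numbers of samples for both groups, but the sample records hold 2 controls, both analysed here. No label says whether the samples came from separate cultures, so the p-values measure only the spread between these samples, which may be technical. The line is a culture without the pericytes, astrocytes and blood flow that surround brain endothelium in the animal.

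Endothelial cells of the brain are sealed by tight junctions, so that nutrients reach the brain through carriers in the cell membrane and not between cells. SLC2A1 carries glucose, the SLC7A5 and SLC3A2 chains together carry large neutral amino acids, SLC7A1 carries cationic amino acids, SLC16A1 carries lactate and ketone bodies with its chaperone BSG, and TFRC takes up iron bound to transferrin. ABCB1, ABCG2 and ABCC4 pump drugs and metabolites out of the cell at the cost of ATP, and MFSD2A carries lysophospholipids that hold docosahexaenoic acid and restrains caveolar transcytosis.

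Gm39822 itself was counted 2, 1, 4 and 2 times in GapmeR 1 to 4, against 61 and 56 times in the controls, a log2 fold change of -4.82 (SE 0.41, adjusted p = 8.82e-08 by the quasi-likelihood test of edgeR, Benjamini-Hochberg corrected over all genes tested). Total counts were 30264086 to 37117934 after knockdown, against 29261988 and 34266811 in the controls. Genes with any counts numbered 22830 to 23566 after knockdown, against 20573 and 21087 in the controls. The cause of this difference, which may bear on rare genes, was not tested. Of 12 endothelial markers, none was at 0 and their summed level was 8848 to 10039 CPM (a gene's TMM-scaled share of a library's counts) against 10368 to 10807, with 2 markers higher and 6 lower after knockdown. Of 12 markers of brain endothelium, 8 were under 1 CPM in every sample, and the summed level of 1564 to 1766 CPM against 1637 to 1741 was mostly that of the tight junction gene Cldn5. Of the others above 1 CPM, Ocln did not pass the test, and the Wnt target Apcdd1 (log2 fold change -0.97, adjusted p = 4.42e-07 by edgeR) and the transcription factor Sox17 (-0.86, adjusted p = 1.28e-07) were lower. Of the 12, 7 were tested, and none of these passed as higher. Lef1, under 1 CPM, had 7, 9, 7 and 6 counts in GapmeR 1 to 4, against 0 and 3 in the controls. Its log2 fold change of 2.00 did not pass (adjusted p = 0.0544 by edgeR). Defining markers such as Slco1c1, Slco1a4 and Foxq1 were at or near 0. GapmeR samples 3 and 4 stood apart on the summed level of 8 macrophage and microglia markers, none at 0. It was 333 and 369 CPM, against 220 and 201 in GapmeR samples 1 and 2 and 170 and 165 in the controls. Most of the gap was Lyz2, at 168 and 206 CPM against 79.1 and 73.5 in GapmeR 1 and 2. Csf1r, Ptprc, Itgam and Adgre1 were also highest in GapmeR 3 and 4. Cd68, the only 1 to pass (higher), did not set them apart (123, 113, 125 and 116 CPM in GapmeR 1 to 4). Nor did Aif1 and Cx3cr1, both under 1 CPM. GapmeR 3 also stood apart on the sum of 6 fibroblast markers, none at 0, at 92.0 CPM. This sum was 17.2 to 22.9 CPM in GapmeR 1, 2 and 4, and 15.9 and 17.5 in the controls. The gap was that of the collagens Col1a1, Col1a2 and Col3a1, at 38.0, 25.2 and 17.8 CPM in GapmeR 3. Pdgfra did not set GapmeR 3 apart (12.1, 9.43, 10.2 and 11.9 CPM in GapmeR 1 to 4), and Dcn and Lum were under 1 CPM. The 10 pericyte and smooth muscle markers summed to 8.68 to 13.3 CPM against 2.19 and 2.34, with Myh11 (mean 5.64 against 0.308 CPM) and Tagln higher. Of the 10, 7 were under 1 CPM in every sample, and none but Myh11 and Tagln passed. The 6 astrocyte markers summed to 264 to 280 CPM against 290 and 306, nearly all of it Gja1, which did not pass, while Gfap (log2 fold change -1.01) and Slc1a2 (-0.81) were lower. Of 6 neuronal markers 5 were lower, with sums of 28.4 to 50.1 CPM against 63.4 and 64.0, and epithelial markers at 1.12 to 1.39 against 0.402 and 0.689. The part of these markers in the results below was not tested, and in bulk RNA fewer cells of a type and less RNA per cell cannot be told apart.

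After knockdown, 8 of the 10 transporters passed an adjusted p of 0.05, 2 higher and 6 lower, where 45.3% of all genes tested passed, 25.4% higher and 20.0% lower. The efflux pump Abcc4 rose 2.76-fold, the largest change of the set, and the amino acid carrier Slc7a5 rose 1.25-fold. Slc3a2, the heavy chain that pairs with Slc7a5, fell to 0.488 of its control level, and Slc2a1, Mfsd2a, Abcg2, Slc7a1 and Slc16a1 also fell, while Abcb1a and Tfrc did not pass the test. The GapmeR samples did not overlap the controls in 8 of the 10, as in 59.2% of all genes tested. The median log2 fold change was -0.24 over the 10 and 0.03 over all genes tested. The number that passed was 5 without GapmeR samples 3 and 4, 4 without control 1 and 3 without control 2, where the lone control left is assumed to vary like the other samples. Abcc4 and Slc3a2 passed in each of these fits.

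**Figure D1:**
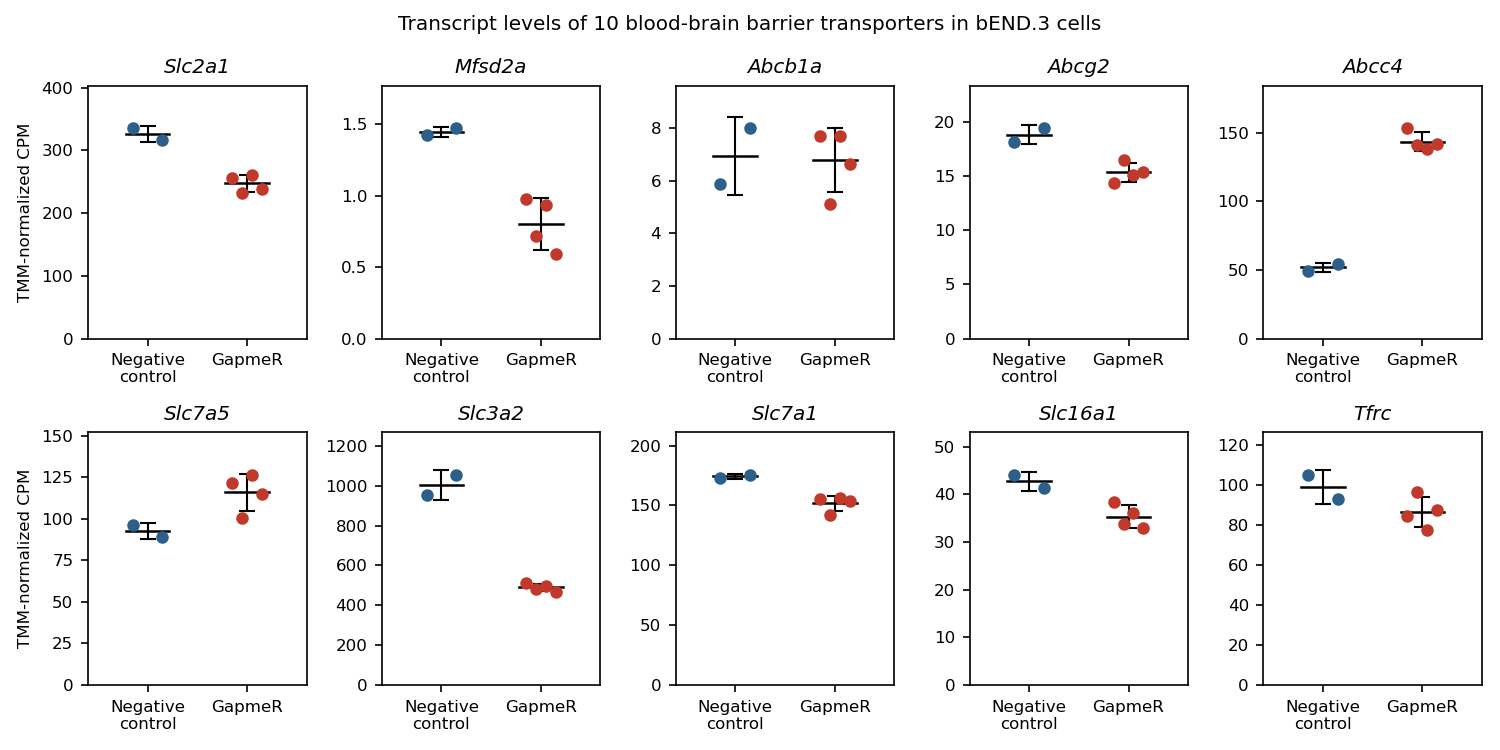
TMM-normalized CPM (y axis, from 0, with a scale for each gene) of the 10 transporters in the 2 negative control samples (blue) and the 4 GapmeR samples (red), with the mean (line) and SD (bar). Abcc4 and Slc7a5 lie above both controls in all GapmeR samples, Slc2a1, Mfsd2a, Abcg2, Slc3a2, Slc7a1 and Slc16a1 lie below, and Abcb1a and Tfrc overlap.

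Slc2a1, the glucose transporter of brain endothelium, lies on mm10 chr4:119108745-119137330. It stood at 256, 233, 261 and 239 CPM in GapmeR 1 to 4, against 336 and 317 CPM in the controls, so that every GapmeR sample was below both controls. The mean fell to 247 ± 13.9 CPM (SD, n = 4) against 326 ± 12.9 CPM (SD, n = 2), which is a log2 fold change of -0.40 (SE 0.07, 95% interval -0.56 to -0.24, adjusted p = 0.000375 by edgeR). This fall of 24.3% is under 1.5-fold, and scaled by library size alone the log2 fold change was -0.25. Slc2a3, the neuronal glucose transporter, was barely present, with 9, 11, 9 and 4 counts after knockdown and 14 and 17 in the controls. Its log2 fold change of -1.10 (SE 0.43) had an adjusted p of 0.0483 in edgeR, which was 0.199 without control 2, 0.147 without control 1, 0.106 without GapmeR 4 and 0.0671 without GapmeR 1.

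Mfsd2a, the lysophospholipid carrier at mm10 chr4:122946850-122961194, was the rarest of the 10. It had 33, 28, 29 and 19 counts in GapmeR 1 to 4, against 39 and 47 in the controls, or 0.974, 0.719, 0.935 and 0.588 CPM against 1.42 and 1.47. All GapmeR samples were below both controls, with a log2 fold change of -0.85 (SE 0.28, 95% interval -1.44 to -0.26, adjusted p = 0.0203 by edgeR). The interval is the widest of the 10, and the call was lost without GapmeR 4 (log2 fold change -0.73, adjusted p = 0.0519 by edgeR), without control 1 (-0.86, adjusted p = 0.0937) and without control 2 (-0.80, adjusted p = 0.134). DESeq2's Wald test gave an adjusted p of 0.0559. Cav1, the main coat protein of caveolae, rose by a log2 fold change of 0.23 (adjusted p = 0.0196 by edgeR; 0.15 without control 2, 0.0615 without control 1 and 0.0505 without GapmeR 1), and Plvap, the diaphragm protein of leaky vessels, showed a log2 fold change of 0.08 (SE 0.14, adjusted p = 0.68).

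Of the 3 efflux pumps, Abcc4 rose, Abcg2 fell and Abcb1a did not pass the test. Abcc4, which exports cyclic nucleotides, prostaglandins and drugs, lies on mm10 chr14:118482692-118707856. It stood at 153, 141, 138 and 142 CPM in GapmeR 1 to 4, against 49.5 and 54.3 CPM in the controls, so that the lowest GapmeR sample was above the higher control. The mean rose to 143 ± 6.76 CPM (SD, n = 4) against 51.9 ± 3.37 CPM (SD, n = 2), which is a log2 fold change of 1.47 (SE 0.08, 95% interval 1.30 to 1.63, adjusted p = 4.54e-10 by edgeR). The log2 fold change stayed between 1.42 and 1.56 with each sample left out in turn.

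Abcg2, the half-transporter that exports sulfated compounds and drugs, lies on mm10 chr6:58584491-58692451 and stood at 14.4, 16.4, 15.1 and 15.4 CPM in GapmeR 1 to 4, against 18.1 and 19.4 CPM in the controls. All GapmeR samples were below both controls, with a log2 fold change of -0.29 (SE 0.09, 95% interval -0.49 to -0.10, adjusted p = 0.0168 by edgeR). The adjusted p in edgeR was 0.0516 without GapmeR 1, 0.0618 without control 1, 0.208 without control 2 and 0.0702 without GapmeR samples 3 and 4, and scaled by library size alone it was 0.238 (log2 fold change -0.14).

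Abcb1a, a P-glycoprotein gene at mm10 chr5:8567091-8748575, stood at 7.67, 5.11, 7.67 and 6.62 CPM in GapmeR 1 to 4, against 5.88 and 7.99 CPM in the controls. The groups overlapped, and the log2 fold change was -0.04 (SE 0.18, 95% interval -0.42 to 0.33, adjusted p = 0.862 by edgeR), turning to 0.10 when scaled by library size alone, 0.22 without control 2 and 0.08 without GapmeR 2. Its paralog Abcb1b, which encodes a second P-glycoprotein, stood at 43.2, 49.0, 42.6 and 50.7 CPM against 33.1 and 33.1. Abcb1b rose by a log2 fold change of 0.49 (SE 0.09, adjusted p = 0.000283 by edgeR). Counting could split reads that match both paralogs. How many reads do so was not measured, so how far this bears on either value is not known. Abcb1a held 9.44% to 19.4% of their summed counts in the 6 samples, and the sum rose by a log2 fold change of 0.41 (adjusted p = 0.000521 by edgeR). The ratio of Abcb1a to Abcb1b counts was 0.178, 0.104, 0.180 and 0.131 in GapmeR 1 to 4, against 0.178 and 0.241 in the controls, and these overlapped (2-sided exact permutation test, p = 0.267, where the smallest p that 15 splits allow is 0.0667).

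The promoters of Abcc4, Slc16a1 and Slc3a2 are shown because Abcc4 and Slc3a2 had the largest changes of the 10, in opposite directions, and Slc16a1, which fell, holds the same motifs as Abcc4. Each runs from 250 bases before to 50 after a RefSeq start site, on the reverse strand of GRCm38.p6 at chr14:118706170-118706469 for Abcc4, on the forward strand at chr3:104638414-104638713 for Slc16a1 and on the reverse strand at chr19:8713848-8714147 for Slc3a2. The start sites used for Abcc4 and Slc3a2 lie within those genes. Capitals mark matches on either strand to an E-box (CACGTG) and an antioxidant response element (ARE, TGACNNNGC), which overlap in Slc16a1.
Abcc4: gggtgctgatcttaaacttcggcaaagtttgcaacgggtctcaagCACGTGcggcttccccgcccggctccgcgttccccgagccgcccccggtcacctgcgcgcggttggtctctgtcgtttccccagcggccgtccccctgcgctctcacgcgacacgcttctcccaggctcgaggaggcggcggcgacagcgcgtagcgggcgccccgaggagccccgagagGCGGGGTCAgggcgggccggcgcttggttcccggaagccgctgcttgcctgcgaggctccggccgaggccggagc
Slc16a1: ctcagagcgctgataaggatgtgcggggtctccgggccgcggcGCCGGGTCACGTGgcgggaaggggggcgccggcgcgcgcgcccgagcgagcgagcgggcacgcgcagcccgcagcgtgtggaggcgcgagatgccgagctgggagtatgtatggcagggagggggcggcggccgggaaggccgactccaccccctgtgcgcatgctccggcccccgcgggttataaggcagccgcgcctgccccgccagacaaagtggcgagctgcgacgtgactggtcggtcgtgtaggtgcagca
Slc3a2: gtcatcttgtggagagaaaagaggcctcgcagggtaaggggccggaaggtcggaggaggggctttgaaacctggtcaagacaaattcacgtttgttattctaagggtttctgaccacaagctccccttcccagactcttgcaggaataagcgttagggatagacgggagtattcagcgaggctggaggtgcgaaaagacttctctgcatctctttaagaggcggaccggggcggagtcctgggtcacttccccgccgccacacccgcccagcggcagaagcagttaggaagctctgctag
The table of promoters held 9 of the 10 genes in 14 entries, with Slc7a5 the one without. An E-box was found in 2 of the 14 entries, those of Abcc4 and Slc16a1, and in 7.15% of 32851 promoters of the same length. ARE letters were found in 5 of the 14 entries, of Abcb1a, Abcc4, Slc7a1 and Slc16a1, and in 12.4% of all promoters, and the GC box GGGCGG, which is not in capitals, in 8 of the 14 entries and in 35.7% of all promoters. In the Abcc4 entry shown, the ARE letters begin at position -25 and the E-box at position -205 from the start site. The other Abcc4 entry, chr14:118676882-118677181, is not shown and held ARE letters but no E-box. The letters TGATGNAA of the C/EBP-ATF response element were in none of the 14 entries and in 3.97% of all promoters. Of the genes with both motifs, Abcc4 rose (log2 fold change 1.47) and Slc16a1 fell (-0.27). The call for Slc16a1 was lost in several alternatives, given below. Whether the motifs have a part in either change was not tested.

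The light and heavy chains of the large neutral amino acid carrier moved apart. Slc3a2, the heavy chain that brings several light chains to the membrane, lies on mm10 chr19:8706882-8723369. It stood at 511, 482, 498 and 469 CPM in GapmeR 1 to 4, against 951 and 1056 CPM in the controls, with the highest GapmeR sample well below the lower control. The mean fell to 490 ± 18.5 CPM (SD, n = 4) against 1003 ± 73.9 CPM (SD, n = 2), which is a log2 fold change of -1.03 (SE 0.07, 95% interval -1.19 to -0.88, adjusted p = 1.5e-08 by edgeR). In the GRCm39 annotation 743 bases of its exons, or 15.9%, also belong to the antisense non-coding gene Snhg1, and without knowing the strand setting of the counting, reads there cannot be told apart. Snhg1, named after its values were seen, had 3447, 4827, 2948 and 3622 counts after knockdown and 930 and 1143 in the controls (log2 fold change 1.63, SE 0.10, adjusted p = 5.2e-09 by edgeR), the opposite direction to Slc3a2.

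Slc7a5, the light chain that forms the transport path for leucine and other large neutral amino acids, lies on mm10 chr8:121881146-121907686. It stood at 122, 101, 127 and 115 CPM in GapmeR 1 to 4, against 96.1 and 89.1 CPM in the controls. All GapmeR samples were above both controls, GapmeR 2 the least, with a log2 fold change of 0.32 (SE 0.09, 95% interval 0.14 to 0.51, adjusted p = 0.00721 by edgeR). Without control 2 the log2 fold change was 0.29 and its adjusted p 0.0976 in edgeR. Within a sample, where library scaling plays no part, Slc7a5 had 0.238, 0.209, 0.254 and 0.245 counts for each count of Slc3a2 in GapmeR 1 to 4, against 0.101 and 0.0844 in the controls. The ratio was 2.56-fold higher after knockdown, with all GapmeR samples above both controls (p = 0.0667 by a 2-sided exact permutation test, the lowest possible with 15 splits).

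Slc7a1, the cationic amino acid carrier that supplies arginine, lies on mm10 chr5:148327410-148399904 and stood at 155, 142, 156 and 154 CPM in GapmeR 1 to 4, against 173 and 176 CPM in the controls. All GapmeR samples were below both controls, by a log2 fold change of -0.20 (SE 0.07, 95% interval -0.35 to -0.05, adjusted p = 0.0295 by edgeR). This fall of 13.0% was among the least certain, with an adjusted p in edgeR of 0.0622 without GapmeR 3, 0.156 without control 1, 0.24 without control 2 and 0.0795 without GapmeR samples 3 and 4. It was 0.0815 with at least 10 counts required in every sample and 0.553 when scaled by library size alone (log2 fold change -0.05). Slc7a3, a related carrier of cationic amino acids, was far rarer, with 149, 190, 137 and 143 counts after knockdown and 38 and 30 in the controls, and rose by a log2 fold change of 1.97 (SE 0.21, adjusted p = 1.18e-06 by edgeR).

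Slc16a1, the monocarboxylate carrier MCT1 at mm10 chr3:104638664-104658462, fell, as did its chaperone Bsg, which brings it to the membrane. Slc16a1 stood at 38.3, 33.7, 36.2 and 33.0 CPM in GapmeR 1 to 4, against 44.1 and 41.3 CPM in the controls, with all GapmeR samples below both controls. Its log2 fold change was -0.27 (SE 0.08, 95% interval -0.45 to -0.10, adjusted p = 0.0116 by edgeR), and that of Bsg was -0.27 (SE 0.07, adjusted p = 0.00696). The ratio of Slc16a1 to Bsg counts was 0.0594, 0.0566, 0.0566 and 0.0513 in GapmeR 1 to 4, against 0.0559 and 0.0561 in the controls, and the groups overlapped (log2 difference -0.0018, 2-sided exact permutation test, p = 1). The spread of the ratio between GapmeR samples was 0.0892 (SD of log2 values). The call for Slc16a1 was lost without control 1 (log2 fold change -0.21, adjusted p = 0.173 by edgeR), without control 2 (-0.30, adjusted p = 0.0563), without GapmeR samples 3 and 4 (-0.22, adjusted p = 0.0691) and when scaled by library size alone (-0.13, adjusted p = 0.213). That for Bsg was lost without control 1 (adjusted p = 0.155 by edgeR) and by library size (adjusted p = 0.159).

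**Figure D2:**
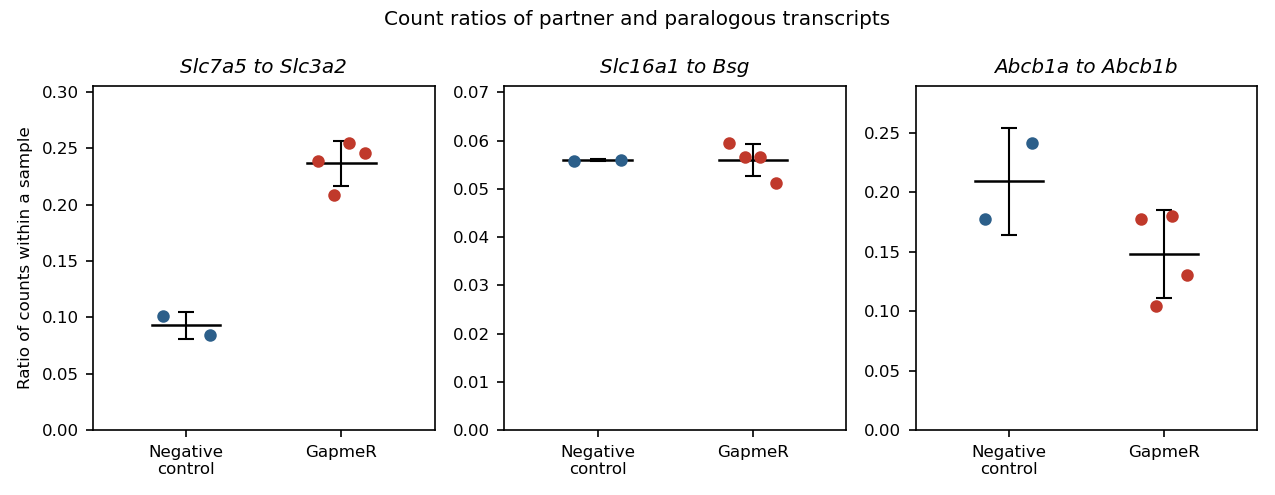
Ratio of 2 genes' counts within each sample (y axis, no unit, from 0) in the 2 negative controls (blue) and the 4 GapmeR samples (red), with the mean (line) and SD (bar). Slc7a5 to Slc3a2 lies at 0.209 to 0.254 after knockdown and at 0.0844 and 0.101 in the controls, while Slc16a1 to Bsg and Abcb1a to Abcb1b overlap.

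Tfrc, the transferrin receptor that brings iron into brain endothelium, lies on mm10 chr16:32608896-32632794. Its mRNA is known to carry iron-responsive elements, hairpins that iron regulatory proteins bind when iron is low, where those in the 3′ UTR stabilize the mRNA and those in the 5′ UTR of the ferritin genes Fth1 and Ftl1 and the exporter Slc40a1 block translation. They are shown because the iron genes below differ in where they carry them. A search of the GENCODE canonical transcripts for the hairpin's letters (an unpaired C, 5 paired bases and the loop CAGTGN) found 4 sites in the 3′ UTR of Tfrc, on the forward strand of GRCm39 at chr16:32450037-32450066, chr16:32450416-32450445, chr16:32450481-32450510 and chr16:32450528-32450557. Single sites lie in the 5′ UTR of Fth1 (chr19:9960096-9960125, forward), Ftl1 (chr7:45109202-45109231, reverse) and Slc40a1 (chr1:45964624-45964653, reverse). Capitals mark the unpaired C and the loop.
Tfrc site 1: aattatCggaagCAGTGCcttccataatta
Tfrc site 2: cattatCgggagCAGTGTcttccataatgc
Tfrc site 3: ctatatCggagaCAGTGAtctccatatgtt
Tfrc site 4: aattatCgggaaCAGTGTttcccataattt
Fth1: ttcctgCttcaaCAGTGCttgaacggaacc
Ftl1: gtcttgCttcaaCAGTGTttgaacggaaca
Slc40a1: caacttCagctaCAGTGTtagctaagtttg
Over all protein-coding transcripts, such letters were found in 262 of 21642 genes, or 1.21%. In canonical transcripts alone, they were found in 4 of the 7 genes searched here, so these shares are not directly comparable. They were not found in the canonical transcripts of Slc11a2, Aco1 and Ireb2. Other transcripts of these genes are not reported, and the search required all 5 stem bases to pair. It can therefore miss elements, and a gene without a match may still carry one.

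Tfrc stood at 84.8, 96.5, 77.8 and 87.6 CPM in GapmeR 1 to 4, against 105 and 93.2 CPM in the controls. GapmeR 2 lay above control 2, so the groups overlapped, and the log2 fold change was -0.20 (SE 0.09, 95% interval -0.38 to -0.01, adjusted p = 0.0756 by edgeR). Without GapmeR 2 it was -0.25 and passed (adjusted p = 0.00807 by edgeR), and with no filter on low counts the adjusted p was 0.0403. Fth1, the ferritin heavy chain that stores iron, rose by a log2 fold change of 0.69 (SE 0.09, adjusted p = 1.33e-05 by edgeR), to 3736 ± 304 CPM (SD, n = 4) against 2311 ± 24.0 CPM (SD, n = 2). Ftl1, the light chain, showed a log2 fold change of -0.10 (adjusted p = 0.343), which turned to 0.04 when scaled by library size alone. Aco1, the iron regulatory protein that is also an aconitase, rose by 0.52 (adjusted p = 4.71e-05 by edgeR) on the log2 scale and the ferrous iron carrier Slc11a2 by 0.43 (adjusted p = 0.000405). The iron exporter Slc40a1, named for its sequence, stood at 6.94, 7.06, 7.67 and 10.2 CPM in GapmeR 1 to 4, highest in GapmeR 4, against 6.17 and 5.45 CPM. It rose by a log2 fold change of 0.46 (adjusted p = 0.0326 by edgeR), with an adjusted p of 0.0835 without GapmeR 4, 0.0723 without control 1, 0.214 without control 2 and 0.12 without GapmeR samples 3 and 4. The second iron regulatory protein Ireb2 showed a log2 fold change of 0.06 (adjusted p = 0.642).

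Per kb of annotated exon (GRCm39, all exons of a gene merged), Slc3a2 was the most abundant of the 10 in the controls at 215 ± 15.8 CPM per kb (SD, n = 2). It was followed by Slc2a1 at 69.6, Slc7a5 at 24.1, Slc7a1 at 14.8, Tfrc at 14.0, Slc16a1 at 8.08, Abcc4 at 6.01, Abcg2 at 1.97, Abcb1a at 1.13 and Mfsd2a at 0.542 CPM per kb, and of these neighbours Slc7a1 and Tfrc overlapped. After knockdown Slc3a2 was still the highest at 105 ± 3.96 CPM per kb (SD, n = 4) and Mfsd2a the lowest at 0.301, and Abcc4 at 16.6 CPM per kb moved from the seventh place to the fourth, above Slc7a1 at 12.9 and Tfrc at 12.3. Exons that these cells do not use lower such a value, so the order holds for the annotated length only.

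**Figure D3:**
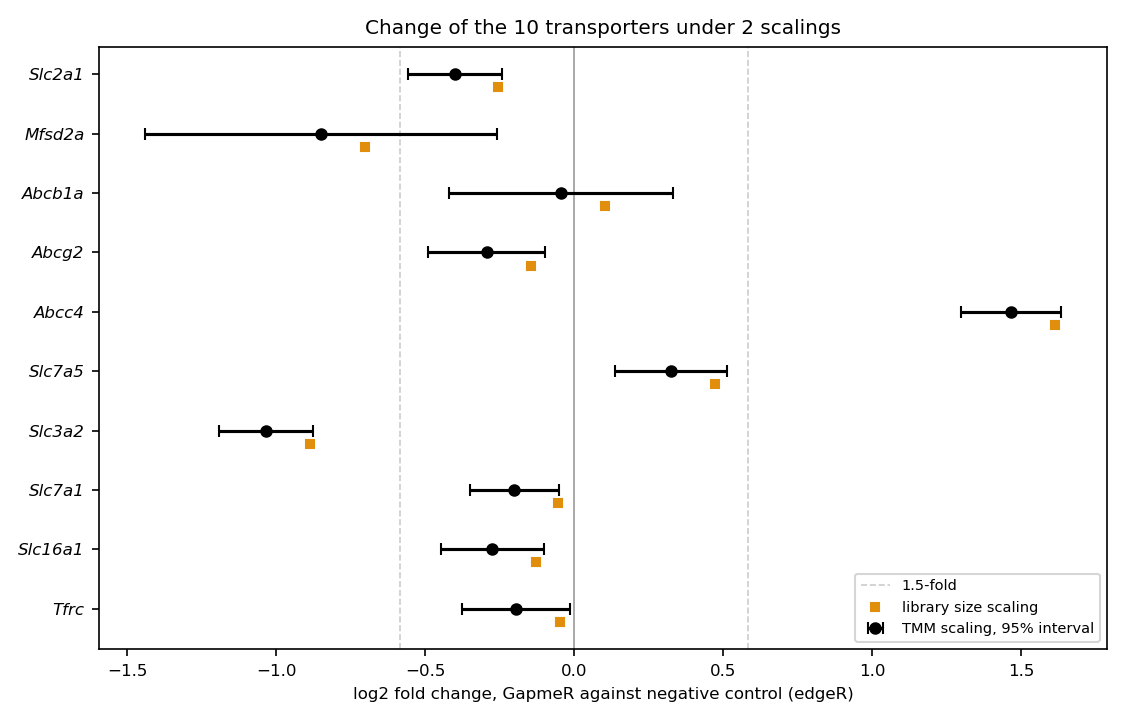
Log2 fold change of the 10 transporters (x axis) from edgeR with TMM scaling (black points, with 95% intervals) and with library size scaling alone (orange squares); dashed lines mark 1.5-fold. Library size scaling moves every value up, and Abcb1a from -0.04 to 0.10, while Abcc4 stays at the right and Slc3a2 and Mfsd2a at the left.

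The scaling bears on the small falls. The GapmeR samples had TMM factors of 1.02 to 1.05 and the controls of 0.931 and 0.936, and with library size alone the median log2 fold change of all genes moved by 0.148, from 0.03 to 0.17. The split of all calls moved from 4625 higher and 3643 lower to 6106 higher and 2135 lower. Of the 10 transporters, Slc2a1, Mfsd2a, Abcc4, Slc7a5 and Slc3a2 passed under both.

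A wider set of 122 transport genes in 8 lists, of which 112 were tested, gives the setting of these 10. Of the 112, 33 were higher and 20 lower by the same test, with a median log2 fold change of 0.06. That is 47.3% of them, 29.5% higher and 17.9% lower, near the 45.3%, 25.4% and 20.0% of all genes tested, against which the counts of each list should be read. The genes named below passed the test with a mean of at least 1 CPM, unless said otherwise. Among 12 other ABC transporters 8 were higher and 1 lower, with a median of 0.40, the highest of the 8 lists. They include Abcc1, the glutathione conjugate exporter, at 0.96 and Abcg4 at 2.23, while the cholesterol exporter Abcg1 was at -0.82. Abcg4 was rare, with 52, 61, 60 and 43 counts after knockdown and 8 and 12 in the controls. Of 6 hexose transporters 2 were higher and 2 lower, with Slc2a6 at -0.87. Of 21 amino acid transporters 4 were higher and 4 lower, among them the cystine-glutamate exchanger Slc7a11 at 1.12, which also pairs with Slc3a2, and the glutamate carriers Slc1a3 at -1.08 and Slc1a2 at -0.81. Of 11 monocarboxylate and thyroid hormone carriers 3 were higher, Slc16a13 (0.53) and Slc16a6 (0.31) among them, and Bsg was lower.

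Of 20 carriers of organic ions, nucleosides, choline and vitamins 4 were higher and 6 lower, among them the carnitine carrier Slc22a5 and the folate carrier Slc19a1, both at 0.32, the riboflavin carrier Slc52a2 at -0.89 and Slco3a1 at -1.44. Of 14 lipid uptake and caveolar genes 4 were higher and 3 lower. Among those that passed, Slc27a3 had the largest change, with 439, 517, 396 and 464 counts after knockdown and 21 and 28 in the controls (log2 fold change 4.01), followed by the fatty acid binding gene Fabp5 at 0.92, with Cavin3 at -0.46 and Slc27a4 at -0.29. Of 11 transcytosis receptors 2 were higher, Ager (3.27) and Lrp8 (0.33), and 2 were lower, Lrp10 (-0.67) among them. Ager had 270, 275, 263 and 270 counts after knockdown and 15 and 34 in the controls. Of 17 iron handling genes 6 were higher, led by the metal carrier Slc39a14 at 2.05 and the mitochondrial iron carrier Slc25a37 at 0.97, and Hfe was lower at -0.51. Lrp1 stood at 15.8, 14.7, 43.7 and 35.9 CPM in GapmeR 1 to 4, against 18.0 and 16.5 CPM in the controls. It was high in the samples where the sum of the macrophage markers was high. Its log2 fold change of 0.67 (SE 0.61, adjusted p = 0.439 by edgeR) was -0.16 without those samples. The insulin receptor Insr (0.16, adjusted p = 0.167 by edgeR) and Cldn5 (0.09, adjusted p = 0.372) did not pass. A single library decided some of these calls. Without control 2 the adjusted p in edgeR was 0.17 for Slc1a2, 0.136 for Slc22a5, 0.111 for Slc19a1, 0.0775 for Lrp8, 0.137 for Slc16a6 and 0.0769 for Slc2a6, and without control 1 it was 0.116 for Slc27a4, 0.0542 for Slc22a5, 0.117 for Slc16a6 and 0.077 for Slc2a6. Without GapmeR 1 it was 0.0804 for Slc16a6 and 0.0529 for Slc22a5.

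**Figure D4:**
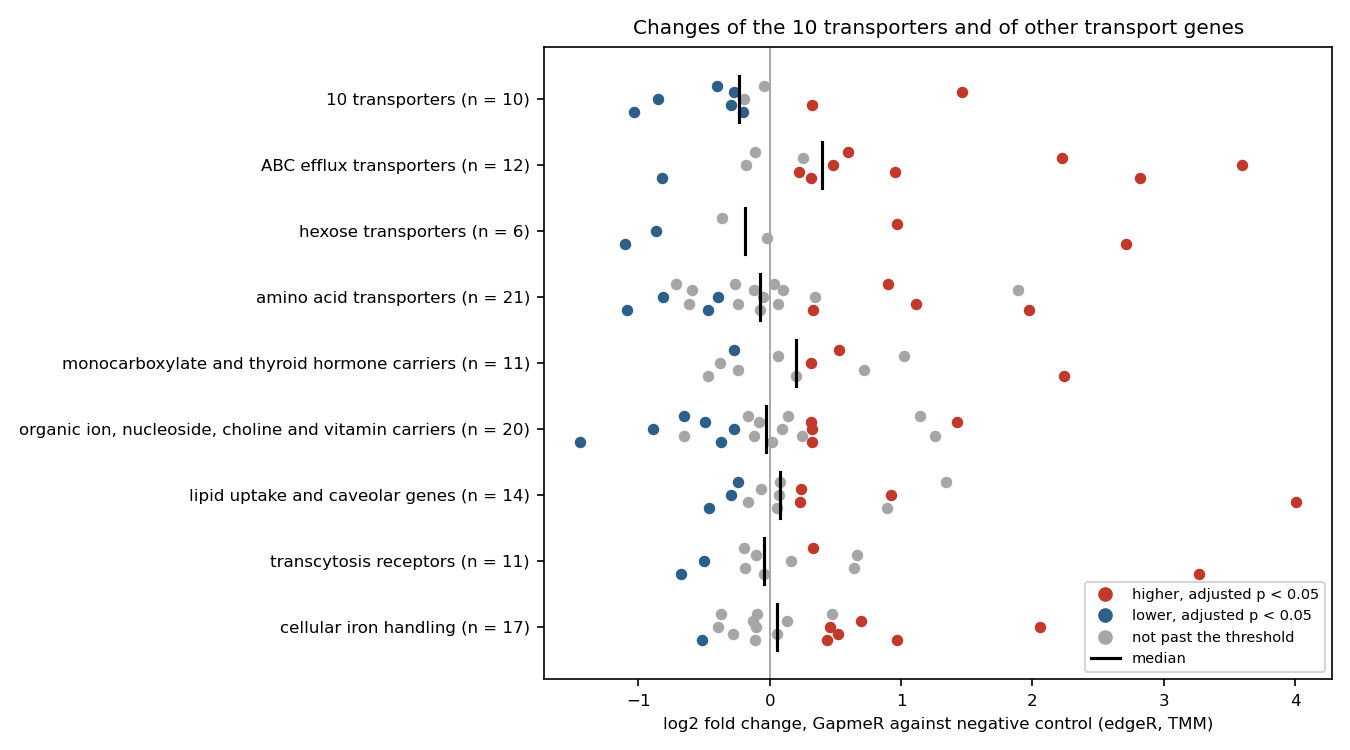
Log2 fold change (x axis, edgeR with TMM scaling) of the 10 transporters and of the genes tested in 8 lists of other transport genes; each point is a gene, red where higher and blue where lower with an adjusted p under 0.05, grey otherwise, and the black line is the median. The median is -0.24 for the 10 transporters and 0.40 for the other ABC transporters.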

How the data were processed

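Bulk RNA-Seq of bEND.3 cells was analysed in 4 GapmeR and 2 Negative Control samples, grouped by the sample titles. The authors removed ribosomal RNA before paired-end sequencing and processed the reads with bcbio-nextgen, with alignment to mm10 by STAR and Ensembl transcripts. The submitters' processing notes name Trimmomatic 0.36, STAR 2.5.2b and Subread 1.5.2. Neither the strand setting nor the Ensembl release is given in the sources used here, so overlapping, antisense and closely similar genes may share reads. The values deposited are whole-number counts per gene, not normalized. A further 1 column of per-sample counts has no sample record and was not used in any step. Replicates of a group differed by more than sampling noise (chi-square per degree of freedom 5.41 to 25.2).

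A gene was kept with 5 or more counts in 2 or more samples (18234 of 49315), and genes kept were scaled by TMM and tested with the quasi-likelihood test of edgeR 4.0.16 (R 4.3.3), with Benjamini-Hochberg adjustment over all of them. The study's own test, DESeq2's Wald test, was run as an alternative (DESeq2 1.42.0), as was limma-voom (limma 3.58.1). CPM are TMM-normalized. SEs come from the log2 fold change and its F statistic, and intervals are at 95%. Ratios within a sample were compared by a 2-sided exact permutation test. The code was tested on simulated counts. The genes named are the 10 transporters, Gm39822, partners written down by hand and, from each list, the genes that passed with the 2 most positive and 2 most negative log2 fold changes, given non-overlapping groups and a mean of 1 CPM or more; 2 of these genes are not reported here. The transporters and lists were chosen with earlier results of these data known. Gene positions are those of RefSeq at GRCm38.p6 (mm10). Exon lengths, overlaps and iron-responsive elements come from GENCODE vM39 (GRCm39), which held 45505 of the genes by Ensembl identifier. Promoters come from RefSeq.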

Additional observations from a re-analysis of the deposited data

Results flagged for a closer look

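In 4 of the 54 sets of 4 GapmeR values examined, 1 sample lay far from the other 3, with a gap to the nearest past Dixon's 95% critical value. Chance flags about 1 in 20 groups. Slc7a1 was lowest in GapmeR 2, at 141.7 CPM against 154 to 156 in the others, and so was Bsg, at 596.1 CPM against 639 to 645. Slc7a3 was highest in GapmeR 2, at 4.88 CPM against 4.40 to 4.43. Slc2a3 was lowest in GapmeR 4, at 0.124 CPM against 0.266 to 0.290, which rests on 4 counts.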

How the results depend on the processing

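Over 161 results of the 10 transporters under alternatives, 121 kept their direction and their side of the threshold, 33 no longer passed, 2 newly passed and 5 changed sign. Of these 5, 4 were of Abcb1a alone and the other was its sum with Abcb1b, which is mostly Abcb1b. Abcc4 (1.42 to 1.61) and Slc3a2 (-1.09 to -0.89) passed in all 16 alternatives, and Slc2a1 (-0.42 to -0.25) in all but those that required a fold change. The number of transporters that passed was 8, 2 higher and 6 lower, and it was 5 (3 lower) with library size scaling, with a replicate block and without GapmeR samples 3 and 4 (an alternative chosen after seeing the data). It was 3 (1 higher, 2 lower) when 1.5-fold or an unadjusted p under 0.01 with a log2 fold change of 0.58 was required. With each sample left out it was 3 to 9, with 1 to 2 higher and 2 to 7 lower. Of the other transport genes 53 passed, and 27 and 25 under those 2 thresholds and 35 to 55 with a sample left out. Over all genes 8268 passed, and 4628 and 4210 under those thresholds and 5232 without control 2, where the thresholds ask for a larger change and the last fit rests on fewer samples.

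Abcb1a turned to 0.10 with library size scaling and to 0.0037 with at least 10 counts in every sample, and lay between -0.22 and 0.22 with a sample left out. Its sum with Abcb1b gave 0.41, but Abcb1a held only 9.44% to 19.4% of that sum. Ftl1 turned to 0.045 with library size scaling. Plvap was -0.080 with the block, -0.074 without GapmeR samples 3 and 4 and -0.015 to 0.22 with a sample left out, Lrp1 was -0.16 with the block, -0.16 without GapmeR samples 3 and 4 and up to 0.88 with a sample left out, and Ireb2 was -0.0023 without GapmeR 2 and up to 0.13 with samples left out. The Slc16a1 to Bsg log2 ratio turned to 0.040 without GapmeR 4 and 0.00069 without control 2, and lay between -0.031 and 0.040 with a sample left out. The causes of these changes were not tested.

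The replicate block uses the numbers in the titles and rests on the 4 samples that share one, with 1 residual degree of freedom. The deviations of same-numbered samples from their group means had correlations of -0.0756 and 0.144 across 10922 genes, which are not independent replicates. With 2 controls the deviations of control 1 mirror those of control 2, so whether same-numbered samples were prepared together cannot be told. With the block 7798 genes passed, of which 7131 also passed without it, and Abcg2, Slc7a1 and Slc16a1 no longer did (adjusted p of 0.0621, 0.0774 and 0.0541 in edgeR). With 2 controls, small changes depend on each of them, and Mfsd2a and Slc2a3 rest on few counts. RNA, not protein or transport, was measured.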
